A study of Mus musculus with 13 samples.

Results

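NIPBL peaks that carried Med1 and no Rad21 were taken from chromatin immunoprecipitation sequencing (ChIP-seq) of sorted double-positive thymocytes, immature T cells of the mouse thymus that bear both the CD4 and the CD8 coreceptor. The members were chosen by the deposited peak lists themselves: a NIPBL interval belonged to the group when it was 1000 bp wide or less, overlapped an interval of the Med1 list by at least 1 bp and overlapped no interval of the Rad21 list. Of 51994 NIPBL peaks, 4049 met the rule, which is 7.79% (95% Wilson interval 7.56 to 8.02%). Overlap with Med1, absence of Rad21 and the width limit are therefore what selected the group and are not findings about it.

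The study followed cohesin, its loader and Mediator in wild type and Rad21 knockout thymocytes, and its labels list 13 samples. The ChIP-seq used here came from wild type cells on a genetic background labelled as a mix of C57BL\6 and 129, with 1 library for each of 3 proteins. NIPBL and Med1 were precipitated from equal numbers of cells, from a lysate with 150 mM NaCl, and Rad21 from a lysate with 800 mM NaCl, with 5 µg of antibody in every case. The salt of the lysate thus differed between the list that had to be present and the list that had to be absent, and its part in the overlap was not tested. The labels give no number of cells for Rad21 and do not say how many animals gave the cells. The knockout RNA-seq libraries and the Hi-C libraries were not analysed here. With 1 library per protein there was no replicate, so no difference between classes of peaks was tested. Where a range follows a percentage in brackets, it is a 95% Wilson interval, which covers counting error only and treats neighbouring peaks as independent.

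Cohesin is a ring-shaped complex that holds DNA together and extrudes loops, and Rad21 is the subunit that closes the ring. NIPBL, with its partner Mau2, loads cohesin onto chromatin and drives its motion. Mediator links transcription factors at enhancers to RNA polymerase II at promoters, and Med1 is the subunit through which many nuclear receptors contact it. Cohesin accumulates where the DNA-binding protein CTCF halts it, which need not be where it is loaded.

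Genes for all 3 proteins were transcribed in wild type cells of the same sort, in 2 RNA-seq libraries of 6633506 and 6500819 counts that are separate samples from the ChIP. Nipbl stood at 870 and 885 CPM (a gene's counts scaled to a library total of 1000000) in wild type replicates 1 and 2, Med1 at 334 and 296, and Rad21 at 299 and 259. All 14 genes of a list of cohesin subunits, loaders and regulators and all 20 of a list of Mediator subunits reached 1 CPM in both libraries. The same held for all 12 markers of double-positive cells, among them Cd4 at 1605 and 1271 CPM, Cd8a at 2465 and 2247 and the recombinase gene Rag1 at 6837 and 6261. The marker Ptcra, the pre-T cell receptor alpha chain, stood at 9.35 and 8.46 CPM. Of the markers of other cells, 2 of 6 B cell, 3 of 5 measured myeloid, 0 of 4 erythroid, 0 of 3 NK cell and 3 of 6 thymic epithelium genes reached 1 CPM in both libraries. Cd79b of B cells stood at 19 and 14.8 CPM, Itgam of myeloid cells at 19.3 and 26.6 and Psmb11 of thymic epithelium at 16.6 and 17.2, all above Ptcra. The summed level was 24.1 and 20.6 CPM for 6 B cell genes, 29.4 and 33.5 for 5 myeloid genes, 2.11 and 0.769 for 4 erythroid genes, 1.96 and 0 for 3 NK cell genes and 21 and 21.2 for 6 genes of thymic epithelium, against 18248 and 16870 for the 12 double-positive markers. The part of other cells in the peak lists was not tested.

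Among the 49894 NIPBL peaks of 1000 bp or less, the members made up 8.12%. A further 1125 peaks (2.25%) carried Med1 together with Rad21, 8520 (17.1%) carried Rad21 without Med1, and 36200 (72.6%) carried neither. Most NIPBL peaks with Med1 were thus without a Rad21 interval, as were most NIPBL peaks in general. Rad21 was present at 21.7% of NIPBL peaks with Med1 (20.6 to 22.9%) and at 19.1% of those without Med1 (18.7 to 19.4%). Leaving out chromosome Y and the first 4 Mb of every chromosome, which are described further on, brought these to 20.5% (19.4 to 21.7%) and 19.1% (18.7 to 19.4%). The order of the shares with Rad21 was not the same at every width. In NIPBL peaks of 154 to 250 bp the share was 25.5% with Med1 (22.9 to 28.4%) and 19.4% over all (18.8 to 20%). In those of 801 to 1000 bp it was 22.7% with Med1 (19.3 to 26.5%) and 25.2% over all (23.4 to 27.1%). Another 448 NIPBL peaks wider than 1000 bp had Med1 and no Rad21 and stayed outside the group by width alone.

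Seen from the Mediator side, 26.3% of the 15112 Med1 intervals lay on a member (25.6 to 27%), 7.31% lay on a NIPBL peak that also had Rad21 (6.9 to 7.73%), and 9388 lay on no NIPBL peak. The relation was nearly one to one. Of the Med1 intervals on members, 3734 carried 1 member, 230 carried 2 and 4 carried 3, while 156 members (3.85%, 3.3 to 4.49%) touched more than 1 Med1 interval. Med1 intervals on members had a median width of 349 bp, and those on no NIPBL peak 352 bp. The Med1 intervals without NIPBL were mostly not near misses: their median gap to the closest NIPBL peak was 8812 bp, and 18.2% (17.4 to 19%) lay within 1 kb of one.

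Within the overlap that the rule required, the NIPBL and Med1 intervals of the members were placed as follows, given as a description, since intervals of this width that overlap cannot have centres far apart. The centres lay a median of 120 bp apart, with quartiles of 48 and 228 bp, and 43.9% of members (42.4 to 45.5%) had centres within 100 bp of each other. The median signed offset, NIPBL minus Med1, was -4.5 bp along the chromosome. In 59.5% of members (58 to 61%) the intervals were staggered, in 20.5% (19.3 to 21.8%) the NIPBL peak lay inside the Med1 interval and in 19.9% (18.7 to 21.2%) the Med1 interval lay inside the NIPBL peak. The overlap was 258 bp at the median and ran from 1 to 935 bp. It was shorter than 50 bp in 201 members (4.96%, 4.34 to 5.68%), 9 of which met the rule by a single base. Peaks that also had Rad21 showed a similar layout, with a median distance between centres of 103 bp and a median overlap of 258 bp.

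**Figure D1:**
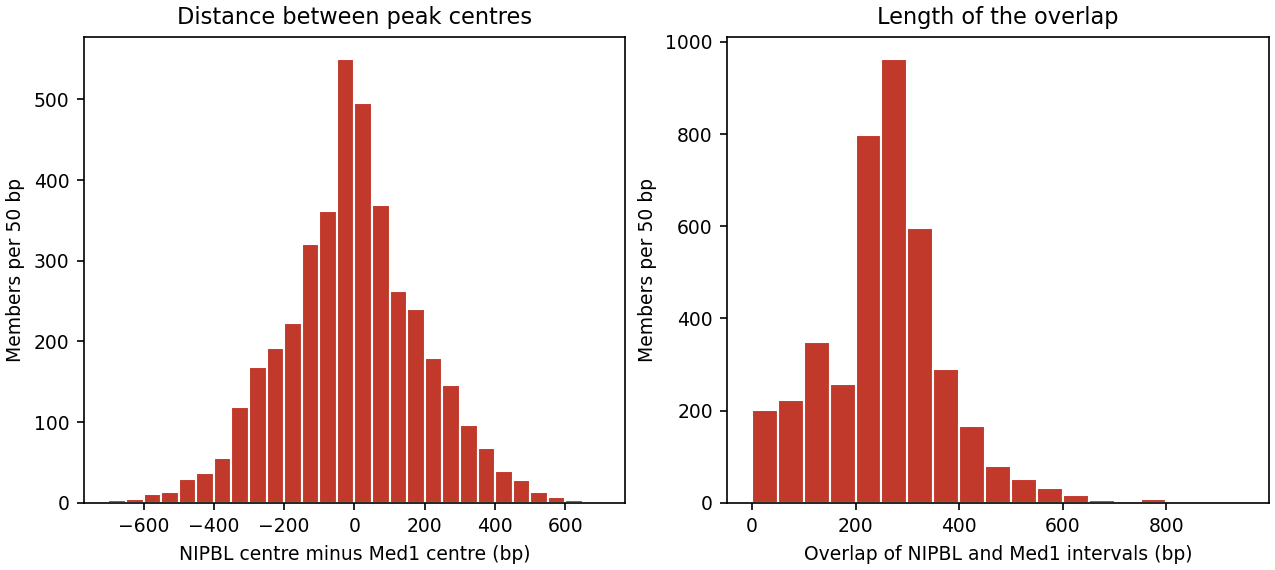
Left, the distance from the Med1 centre to the NIPBL centre in bp for the members, in bars of 50 bp; 9 members with centres more than 700 bp apart lie outside the axis. Right, the length in bp shared by the NIPBL and Med1 intervals of each member; the bars are counts of members, and the overlaps gather around the median of 258 bp.

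The member with the longest overlap was the NIPBL peak at chr5:115980002-115980937, of which 935 of 936 bp were shared with a Med1 interval at chr5:115980003-115980996. Its nearest Rad21 interval was 7621 bp away. Here both proteins were called over almost the same stretch. The next was chr1:182778245-182779167, with 921 bp shared and Rad21 14632 bp away. At chr8:23295842-23296649 the whole NIPBL peak of 808 bp lay inside a Med1 interval of 992 bp, and Rad21 was 6465 bp away. Among the 8 members of longest overlap, 4 were on chromosome 17 and 2 on chromosome 1. One of those on chromosome 17, chr17:5189556-5190450, shared 849 bp with Med1 and had a Rad21 interval only 25 bp beyond its edge. The other 7 had Rad21 at 2507 to 18767 bp.

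Members at the limit of the width rule differed in how much of them Med1 filled. Just inside it, chr1:88383737-88384734 (998 bp) shared 488 bp with Med1, chr11:55282688-55283683 (996 bp) shared 66 bp and chr14:67627006-67627998 (993 bp) shared 230 bp. Just outside it, with Med1 and without Rad21, were chr8:125897187-125898187 (1001 bp, 242 bp shared), chr5:135643981-135644982 (1002 bp, 233 bp shared) and chr9:14849162-14850163 (1002 bp, 288 bp shared). The narrowest members were 156 bp wide.

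Members had wider NIPBL peaks than most. Their median width was 386 bp, with quartiles of 273 and 601 bp, against 288 bp (240 and 396 bp) for NIPBL peaks with neither protein and 301 bp (239 and 451 bp) for those with Rad21 alone. Peaks with both Med1 and Rad21 resembled the members, at 379 bp (260 and 618 bp). The median of the members was above that of NIPBL alone on 19 of the 20 chromosomes that held at least 10 peaks of each class. A wider peak meets the overlap rule more easily on any chromosome, so this count is a description only. At the 90th percentile the members reached 796 bp and NIPBL alone 598 bp.

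**Figure D2:**
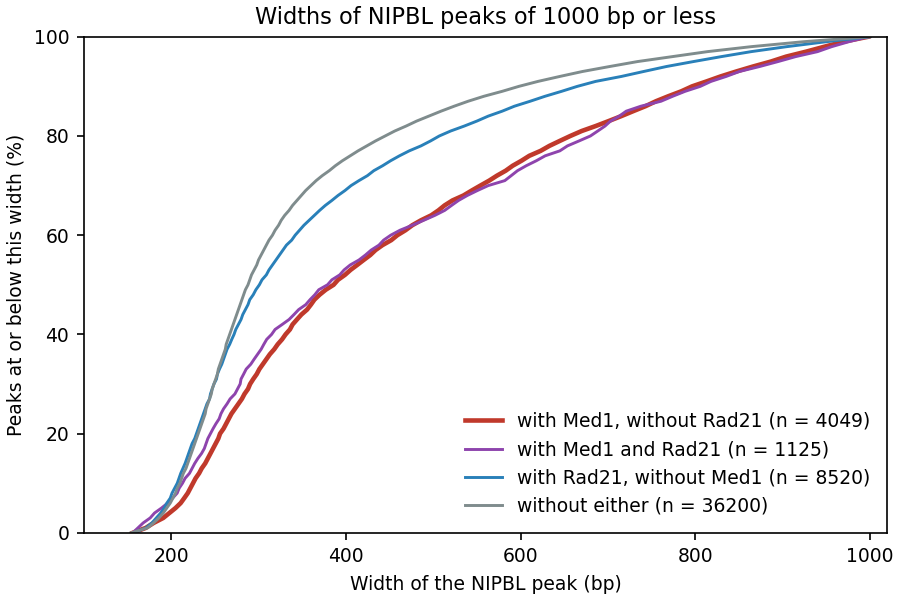
Cumulative share of NIPBL peaks (y axis, percent) at or below each width (x axis, bp) for the members and the 3 other classes of NIPBL peaks of 1000 bp or less. From the 10th to the 90th percentile the curves of the 2 classes with Med1 run close together, to the right of the 2 classes without it.

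A wide interval can meet another more easily than a narrow one, so the share of members was also read by width class. It was 4.88% (4.54 to 5.24%) of NIPBL peaks of 154 to 250 bp and grew with each class to 18.5% (16.9 to 20.2%) of those of 801 to 1000 bp. When Med1 had to cover the middle base of the NIPBL peak, a rule chosen after the data were seen that is less open to width, the share was 3.79% (3.5 to 4.11%) in the narrowest class, 8.78% (8.04 to 9.58%) at 451 to 600 bp and 6.24% (5.29 to 7.34%) in the widest. The share with Med1 and without Rad21 was thus higher in mid-width peaks than in the narrowest under both readings. Its continued growth among the widest peaks was seen under the overlap rule alone. In both readings Rad21 was judged by any overlap, which also varied with width. Rad21 overlapped 19.4% (18.8 to 20%) of the narrowest and 25.2% (23.4 to 27.1%) of the widest NIPBL peaks. Rad21 over the middle base was seen in 17.9% (17.3 to 18.5%) of the narrowest, 17% (16 to 18%) of the 451 to 600 bp and 10.6% (9.4 to 12%) of the widest NIPBL peaks.

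Although the members overlapped no Rad21 interval, cohesin was called in the neighbourhood of most of them. The nearest Rad21 interval was a median of 9213 bp away, and it lay within 10 kb of 52.1% of members (50.5 to 53.6%) and within 100 kb of 96% (95.4 to 96.6%). On average 1.07 Rad21 intervals lay within 10 kb of a member and 4.3 within 50 kb, with medians of 1 and 3. Near misses were few: 79 members (1.95%, 1.57 to 2.42%) had Rad21 within 100 bp and 530 (13.1%, 12.1 to 14.2%) within 1 kb. The closest was chr15:58046108-58046746, with 4 bp to Rad21. The most remote were chr3:5860509-5860937, with no Rad21 interval for 2384423 bp, and chr5:80243209-80243485, with none for 2353448 bp. On the other side of the rule, 42 of the 1125 peaks with both proteins touched Rad21 by less than 50 bp.

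NIPBL peaks with neither protein, which are likewise without Rad21 by definition, lay slightly closer to it. Their median gap was 7604 bp, and 56.9% (56.4 to 57.4%) had Rad21 within 10 kb. The median gap of the members was above that of NIPBL alone on 18 of 20 chromosomes. It was 9036 bp for members and 7574 bp for NIPBL alone without chromosomes 1 and 17, and 8118 bp and 7349 bp among peaks of 350 bp or less. At short range the classes did not part: 8.25% of members (7.44 to 9.14%) and 8.1% of NIPBL alone (7.83 to 8.39%) had Rad21 within 500 bp. The mean number of Rad21 intervals within 10 kb, 1.07 for members and 1.02 for NIPBL alone, was ordered the other way. The median number was 1 in both classes, and within 50 kb it was 3 for members and 4 for NIPBL alone. The means include the places crowded with Rad21 described further on and were not computed without them.

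**Figure D3:**
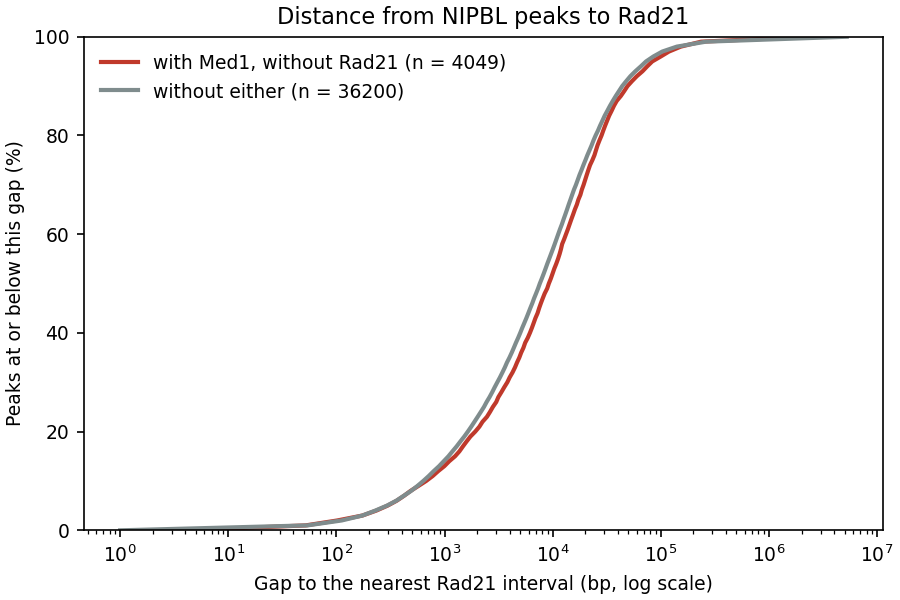
Cumulative share of NIPBL peaks (y axis, percent) by the gap in bp to the nearest Rad21 interval (x axis, log scale; a gap of 0 is drawn at 1) for members and for NIPBL peaks with neither protein. The curves lie together up to 500 bp, and the members lie to the right at the quartiles, with medians of 9213 and 7604 bp.

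Most members had another NIPBL peak nearby. The nearest NIPBL peak of any class was a median of 778 bp away, against 824 bp for NIPBL alone and 1876 bp for NIPBL with Rad21 alone. Another NIPBL peak lay within 1 kb of 52.9% of members (51.4 to 54.5%), and of 52.9% of NIPBL alone (52.4 to 53.4%). Within 100 bp it lay for 20.6% (19.4 to 21.9%) of members and 17% (16.6 to 17.4%) of NIPBL alone. No other NIPBL peak lay within 10 kb of 22.8% of members (21.6 to 24.1%) and of 19.7% of NIPBL alone (19.3 to 20.1%).

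Further Med1 intervals were more frequent around members than around NIPBL alone. They come from the list that chose the members, so this is a description. A second Med1 interval, besides those on the member, lay within 10 kb of 50.4% of members (48.8 to 51.9%), against 30.8% (30.3 to 31.2%) of NIPBL peaks with neither protein. For peaks with both Med1 and Rad21 the share was 51% (48.1 to 53.9%), and for those with Rad21 alone 27.7% (26.8 to 28.7%). Counting only Med1 intervals between 1 and 10 kb away, which leaves out abutting ones, 40.5% (39 to 42%) of members and 25.9% (25.5 to 26.4%) of NIPBL alone had one. Without chromosomes 1 and 17 the values within 10 kb were 47.1% (45.4 to 48.8%) and 29% (28.5 to 29.5%). At least 3 further Med1 intervals lay within 10 kb of 526 members (13%, 12 to 14.1%), of 19.3% of peaks with both proteins (17.1 to 21.7%), of 4.39% of NIPBL alone (4.19 to 4.61%) and of 3.52% of Rad21 alone (3.15 to 3.93%).

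Another member lay within 10 kb of 31.4% of members (30 to 32.9%), within 1 kb of 19.7% (18.5 to 21%) and within 100 kb of 65.9% (64.4 to 67.3%). For the other classes the share with another peak of their own class within 10 kb was 73.3% (NIPBL alone, 36200 peaks), 37.7% (Rad21 alone, 8520 peaks) and 19.6% (both proteins, 1125 peaks). These shares come from classes of different size, and larger classes had larger shares, so nothing particular to the members is read from them. The median gap to the nearest other member was 43198 bp. Joined over gaps of up to 10 kb, the members formed 525 runs of 2 or more, of which 401 were pairs, and 2776 members stayed alone (68.6%, 67.1 to 70%). Runs of 4 or more numbered 36 and held 207 members.

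The longest runs were of different kinds. On chromosome 8 a run of 7 members spanned chr8:87489681-87510430, 20.8 kb. It held 12 NIPBL peaks, 8 Med1 intervals and 2 Rad21 intervals, and NIPBL covered 31.9% of its length, Med1 15% and Rad21 3.78%. Its members were 230 to 873 bp wide, and the one at chr8:87499915-87500778 enclosed a Med1 interval of 615 bp and lay 193 bp from Rad21. On chromosome 17 a run of 7 at chr17:35322912-35339227 had 13 NIPBL peaks, 7 Med1 intervals and 1 Rad21 interval, with Rad21 over 2.32% of 16.3 kb. A run of 6 at chr17:35998062-36007701 held no Rad21 interval at all. Among the 8 runs described, the one with most members per kb was chr1:137025690-137030147, with 6 members in 4.46 kb, NIPBL over 75.2% and Med1 over 68.6% of it. In that run a single Med1 interval of 1470 bp held the members chr1:137027006-137027278 and chr1:137027299-137028015.

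Other runs lay where all 3 lists were crowded. At the start of chromosome 11, chr11:3023606-3098600 held 46 members in 75 kb, together with 33 NIPBL peaks that had both other proteins. Med1 covered 66.1% of that stretch and Rad21 21.4%, and the members, with a median width of 229.5 bp, lay a median of 309 bp from Rad21. On chromosome Y, chrY:2849238-2863457 and chrY:2875755-2898394 held 7 members each, with Med1 over 89.2% and 84.7% and Rad21 over 46% and 51.7% of their length. In the second of these all members lay 24 to 112 bp from Rad21. Members in the second Y run were 158 to 301 bp wide, lying between 26 Rad21 intervals. A run of 6 on chromosome X, chrX:121299370-121313288, also had narrow members, 163 to 228 bp wide, among 11 Med1 and 5 Rad21 intervals. Over all lists, the smallest start of an interval outside Y was 2999915, and the last end on Y was 2902471. The runs on chromosomes 11 and Y thus lay near the edge of the called intervals. No repeat annotation was used, so whether these places are repeats was not tested.

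**Figure D4:**
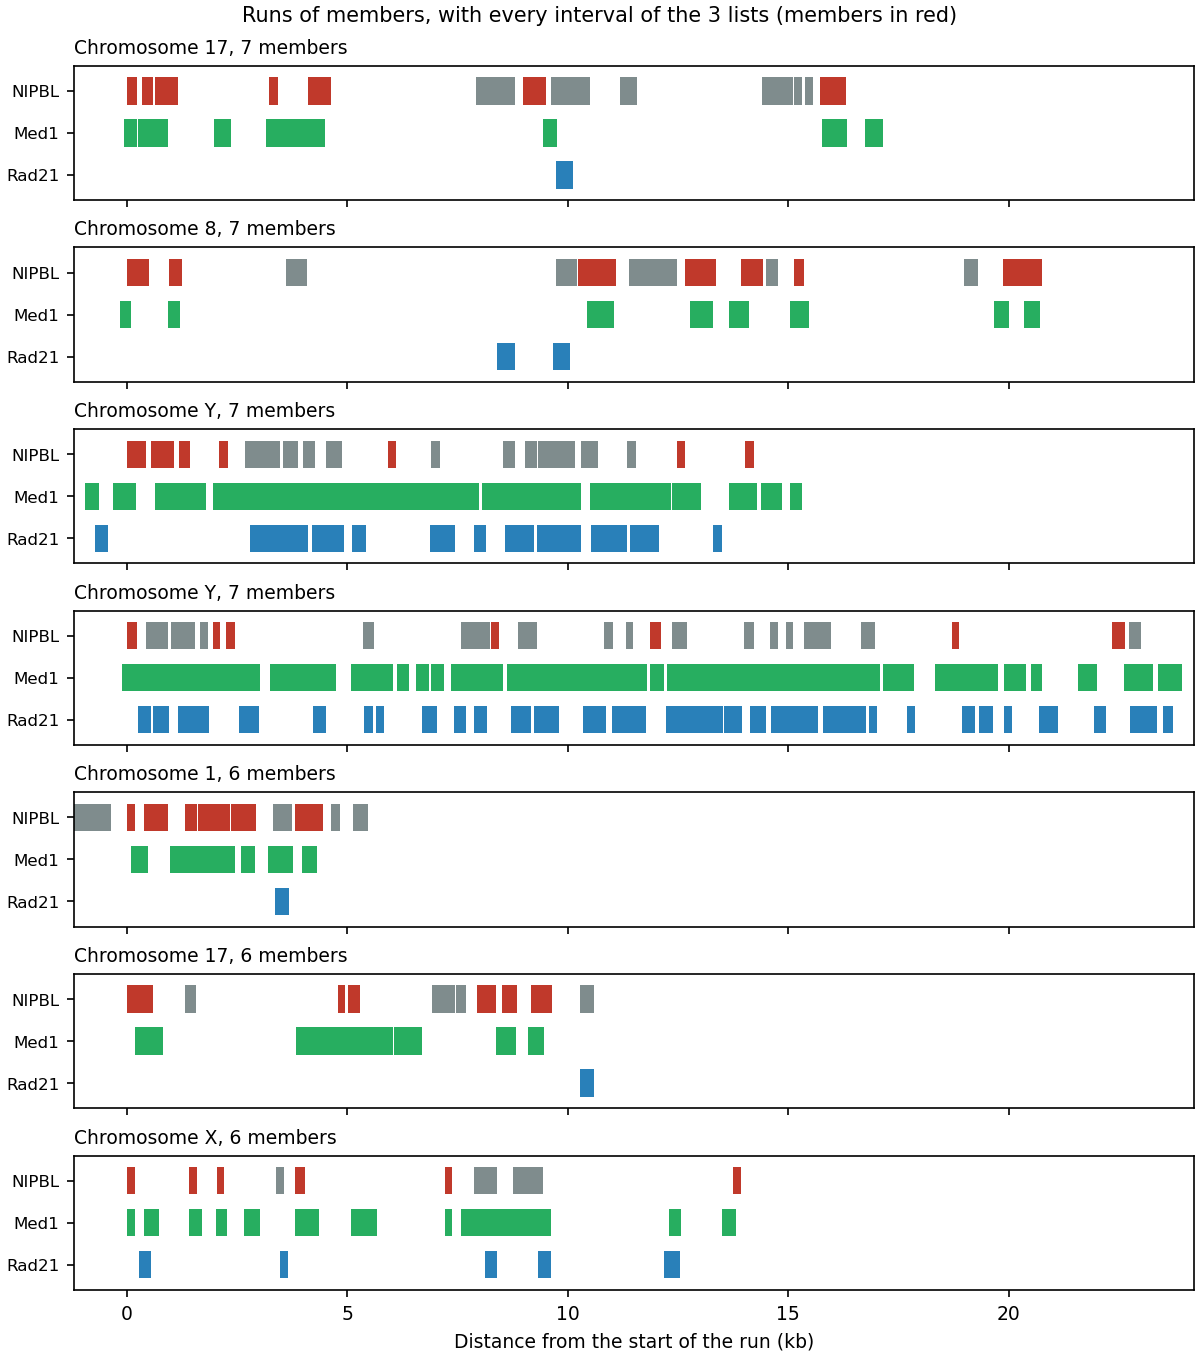
NIPBL, Med1 and Rad21 intervals over 7 runs of 6 or 7 members, drawn to scale from the start of each run (x axis, kb). Members are red, other NIPBL peaks grey, Med1 green and Rad21 blue; the runs on chromosomes 8, 1 and 17 hold 0 to 2 Rad21 intervals between their ends, and those on Y are filled with Med1 and Rad21.

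Members made up a larger share of NIPBL peaks at the starts of chromosomes and on Y than elsewhere. In the first 4 Mb of the chromosomes other than Y lay 97 members, 48 of them on chromosome 11, and members were 21% of the NIPBL peaks there (17.5 to 24.9%). Chromosome Y held 31 members among 88 NIPBL peaks. On Y a further 50 NIPBL peaks had both proteins and 6 had neither. Without Y and the chromosome starts 3921 members remained, the share with another member within 10 kb was 30.1%, and the median gap to Rad21 was 9531 bp, against 7598 bp for NIPBL alone.

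Members were unevenly spread over chromosomes. They made up 12.3% of NIPBL peaks of 1000 bp or less on chromosome 1 (400 of 3257, 11.2 to 13.5%) and 13.9% on chromosome 17 (372 of 2677, 12.6 to 15.3%). On the other 18 chromosomes without Y the share was 7.4% (7.16 to 7.65%) and ranged from 6.39 to 8.7%. Chromosome 1 thus had 1.66 times and chromosome 17 1.88 times the share of the others, and neither interval met that of any of the 18. The rule requires a Med1 interval, so this share depends on how dense the Med1 list is and is given as a description. Chromosome 1 held 9.88% and chromosome 17 9.19% of all members.

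The same 2 chromosomes stood apart in the Med1 list. Per 100 NIPBL intervals there were 53.2 Med1 intervals on chromosome 1 and 51.4 on chromosome 17, against 22.3 to 30.8 on the other 18. Rad21 intervals per 100 NIPBL intervals were 53.7 on chromosome 1, inside the range of 46.6 to 75.3 on the other 18, and 46.2 on chromosome 17, just under it. Along chromosome 1 the share of members was 9.11 to 15.4% in its 10 windows of 20 Mb with at least 50 NIPBL peaks, and along chromosome 17 it was 10.8 to 15.7% in 5 windows. The median over 122 windows of the other chromosomes was 7.13%, and 24 of these reached the lowest value of chromosome 1. The 5 windows of chromosome 17 and the 10 of chromosome 1 were all above that median. Of the Med1 intervals on chromosome 1, 32.1% lay on a NIPBL peak and on chromosome 17 38.3%, against 37.9% over all chromosomes. What set these 2 chromosomes apart in the Med1 library was not tested.

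**Figure D5:**
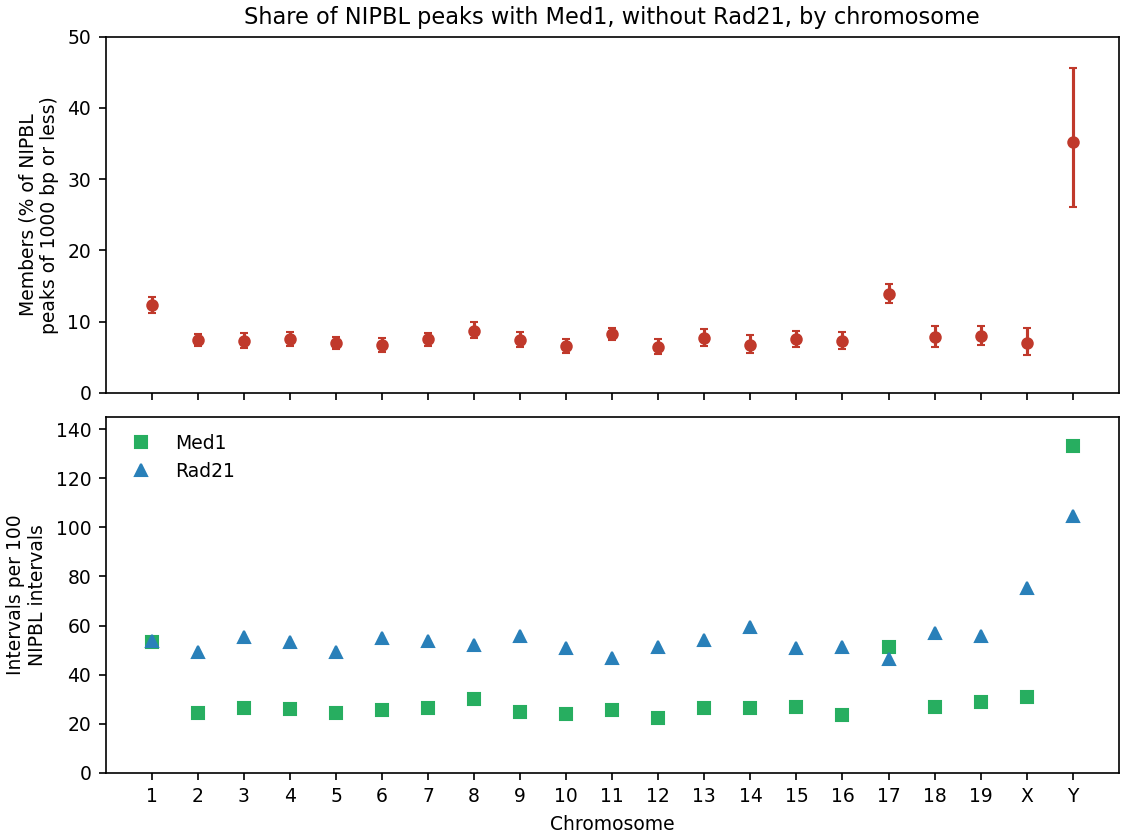
Top, members as a percentage of NIPBL peaks of 1000 bp or less on each chromosome, with 95% Wilson intervals. Bottom, Med1 and Rad21 intervals per 100 NIPBL intervals; chromosomes 1 and 17 are high for members and Med1 and not for Rad21, and Y is high for all.

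The coordinates are those of the mouse build mm9, counted from 1. The gene annotation used here was of another build, so the members were not placed on genes, and neither their distance to transcription starts nor their sequence is given.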

How the data were processed

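ChIP-seq of NIPBL, Med1 and Rad21 was made from sorted wild type CD4+CD8+ thymocytes, with 1 library per protein. Each deposited peak list gives only the position of its intervals and no score, so no stricter threshold could be set. The names of the lists point to duplicate removal and to the caller SWEMBL, and the submitters' processing notes name the build mm9. The labels list 2 input libraries, 1 titled as input for NIPBL and Med1 and the other for Rad21. The aligner, the caller's parameters and whether the caller used input were not given in the sources consulted. The depth of the ChIP libraries is unknown. The lists held 51994 NIPBL, 15112 Med1 and 27207 Rad21 intervals. Intervals were compared in Python 3.11.15 (pandas 2.3.3, scipy 1.17.1). Membership was checked with bedtools 2.31.1, which found the same 4049 peaks. The classification was tested on simulated intervals. A gap is the number of bases between 2 intervals. For RNA-seq the deposited table holds estimated counts per Ensembl gene, and CPM was computed here by scaling each wild type library total to 1000000. Symbols were found for 17342 of 17849 identifiers, and no column of values was left without a sample.

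The group and the gene lists were chosen with earlier results of these data known. The regions named are the 8 members of longest overlap with Med1, the 3 on each side of the width limit and the 6 longest runs with those tied to them. The narrowest members, those nearest to and farthest from Rad21, and single members of runs were chosen after their values were seen. Planned results that place members on genes or read their sequence (share at transcription starts, motifs, RNA of genes at members in wild type and knockout) were not run.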

Additional observations from a re-analysis of the deposited data

How the results depend on the processing

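The number of members depends on how overlap is defined. From 4049 it changed to 2608 with NIPBL peaks of 500 bp or less and to 2566 where Med1 had to cover at least 50% of the NIPBL peak. It stayed within 1.5 times with peaks of any width (4497), with no Rad21 within 1 kb (3519), and under 3 settings chosen after the data were seen: Med1 over the middle base (2789), without chromosome Y and chromosome starts (3921) and without chromosomes 1 and 17 (3277). The share of members with another member within 10 kb, 31.4%, was 28.8% at 500 bp or less, 24.9% with 50% of the peak covered, 28.4% with no Rad21 within 1 kb, 24.9% with Med1 over the middle base, 26.9% at a distance of 5 kb and 41.1% at 25 kb. It was 32.2% with any width, 30.1% without chromosome Y and chromosome starts and 30.1% without chromosomes 1 and 17. A shorter or longer distance changes this share by construction. For the other settings the share mostly fell with the number of members, with exceptions. It was 28.8% with the 2608 members of 500 bp or less, against 24.9% with the 2789 with Med1 over the middle base. It was 30.1% with the 3277 members without chromosomes 1 and 17, against 28.4% with the 3519 without Rad21 within 1 kb. The cause was not tested. No paired analysis was possible because each ChIP result comes from single libraries with no test. The alternatives for the RNA-seq test, for transcription starts and for motifs were not run, since the results they belong to were not made. Without peak heights or read depth, a peak absent from the Rad21 list cannot be told apart from one below the caller's threshold.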
